A study of Mus musculus with 20 samples.

Results

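The genes described here are the hepcidins and the main iron handling genes of mouse liver: Hamp, Hamp2, Bmp6, Hfe, Tfr2, Tfrc, Trf, Fth1 and Ftl1. They were listed by symbol, with earlier results of these data known. Shares of all genes set beside their counts are therefore no unbiased test. All 9 had an intact line in the deposited table, out of 23993 intact genes. All 9 passed the filter on low counts, which left 10207 genes tested. RNA was sequenced from liver of 20 individual mice, which the series' title gives as female, with 5 mice in each of 4 groups. A vehicle diet was fed to sedentary mice (Con.Sed) and to mice with voluntary wheel running (Con.VWR), and a diet with oral combined contraceptives (OC) was fed to sedentary mice (OC.Sed) and to running mice (OC.VWR). The strain, the age, the contraceptive agents, their dose and the length of treatment are not given in the sources used here. Replicate numbers below only name a mouse. The design asks what the contraceptive diet did to liver gene expression, what running did, and whether the effect of one depended on the other.

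Hepcidin is a small peptide hormone made by hepatocytes. It binds the iron exporter ferroportin and has it degraded, so that less iron leaves gut cells, macrophages and hepatocytes. Its gene is driven by bone morphogenetic proteins (BMPs), above all BMP6 from sinusoidal endothelial cells, through SMAD proteins with HFE, transferrin receptor 2 and hemojuvelin on the hepatocyte, and by interleukin 6 through STAT3. Mice carry a pair of hepcidin genes. Overexpression of Hamp makes mice anaemic, whereas that of Hamp2 does not, and Hamp2 is known to be expressed more in female than in male liver. Transferrin (Trf) carries iron in plasma, transferrin receptor 1 (Tfrc) takes it into cells, and ferritin heavy and light chains (Fth1, Ftl1) store it. Iron regulatory proteins bind stem-loops called iron-responsive elements, which protect Tfrc mRNA from decay and block translation of ferritin mRNA when iron is low.

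The pair of hepcidin genes is shown first because their responses differed in size. Both lie on the minus strand of chromosome 7 in GRCm38 (mm10, GENCODE vM21), Hamp at chr7:30942368-30944032 and Hamp2 at chr7:30922372-30924681. Each line below is 190 of the 250 bases upstream of the RefSeq start site (GRCm38.p6, minus strand) and stops short of that site. The lines lie at chr7:30944040-30944229 for Hamp and chr7:30924192-30924381 for Hamp2. The Hamp2 window lies inside the GENCODE gene, which begins further upstream than the RefSeq start site. Bases upstream of that GENCODE start were not searched. The first capitals mark GGCGCC, the core of the BMP-responsive element, in Hamp and the aligned hexamer in Hamp2. The second capitals mark TTCTTGGAA, which matches the STAT site TTCNNNGAA.
Hamp: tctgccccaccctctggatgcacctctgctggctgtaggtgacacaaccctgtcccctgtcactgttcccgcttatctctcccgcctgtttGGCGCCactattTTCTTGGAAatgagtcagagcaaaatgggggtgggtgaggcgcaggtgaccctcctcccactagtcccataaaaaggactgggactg
Hamp2: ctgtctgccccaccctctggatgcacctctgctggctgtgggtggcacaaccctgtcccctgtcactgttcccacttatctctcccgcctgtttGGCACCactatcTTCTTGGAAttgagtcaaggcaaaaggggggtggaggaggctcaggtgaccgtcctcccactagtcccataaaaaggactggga
Over 247 aligned bases the full 250-base upstream windows were 91.9% identical. In Hamp the GGCGCC began at position -109 from the start site. The aligned Hamp2 hexamer began at -106 and carried the substitution G4A, counted from 1 at the 5′ end of the hexamer, so GGCGCC was not found in the 250 bases upstream of Hamp2. TTCTTGGAA was in both, at -97 in Hamp and -94 in Hamp2, 6 bases after the hexamer in each. Of all 32851 RefSeq promoters searched over the same 250 upstream bases on both strands, 9.59% held GGCGCC and 7.02% held TTCNNNGAA. Among the 12 promoters of the 8 members with an entry (Trf had none), GGCGCC was in 2, Hamp and 1 of the Tfrc promoters, and TTCNNNGAA was in 2, both hepcidins. The palindromic oestrogen response element (GGTCA, any 3 bases, TGACC), at 0.0639% of all promoters, was in none of the 12. Such matches describe letters and do not show that a factor was bound.

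The transcripts are also close, which bears on how reads divide between them. The 252-base coding sequences were 93.7% identical. The last 75 coding bases before the stop codon, which encode the mature 25-residue peptide, differed at 14 positions, in capitals below (minus strand, chr7:30942480-30942554 for Hamp and chr7:30922511-30922585 for Hamp2).
Hamp: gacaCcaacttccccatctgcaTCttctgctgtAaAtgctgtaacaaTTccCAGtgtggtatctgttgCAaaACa
Hamp2: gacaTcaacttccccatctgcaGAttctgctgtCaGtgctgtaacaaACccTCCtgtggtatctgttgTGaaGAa
Of the 361 windows of 50 bases in the Hamp transcript, 60 (16.6%) were also in the Hamp2 transcript letter for letter, and of the 311 windows of 100 bases none was. The longest shared run was 87 bases. The division of reads between the genes is therefore uncertain, and the result for their summed counts is given beside that for each. Both hepcidin genes also overlap a non-coding gene model, Gm44662, on the opposite strand, and the strand setting of the counting is not given.

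Levels below are CPM, read counts scaled to a common library size with TMM, which also corrects for differences in composition between libraries. Compared per kilobase of all annotated exon bases of a gene, so that genes can be ranked, vehicle sedentary livers held most transferrin mRNA at 8141 ± 903.3 CPM per kb (SD, n = 5). Ferritin light chain at 2743 ± 218.8 CPM per kb and Hamp at 2646 ± 832.6 came next and did not differ beyond their spread. Hamp2 at 1320 ± 929.2 CPM per kb overlapped with Fth1 at 705.1 ± 66.8. Then came Tfr2 at 111.2 ± 24.03, Hfe at 18.1 ± 3.18, Tfrc at 4.41 ± 1.05 and Bmp6 at 2.33 ± 0.55 CPM per kb. In OC sedentary livers the order of the means was the same but for Hamp2, which at 54.0 ± 9.05 CPM per kb lay below Tfr2 at 129.2 ± 10.7. Hamp, at 1183 ± 491.6 CPM per kb there, was below Ftl1 in all 5 mice and below Fth1 in 2 of the 5, so its place beside Fth1 was within the spread. The order rests on the lengths used, 583 bases for Hamp2, where the transcript compared above has 420, and 3469 for Fth1. Ranks with other lengths were not computed.

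The contraceptive diet lowered both hepcidin mRNAs, Hamp2 far more than Hamp, raised Tfrc and lowered Trf. Neither ferritin chain, nor Hfe, Tfr2 or Bmp6, passed the test. In sedentary mice 1 member was called higher and 3 lower by edgeR's quasi-likelihood test at an adjusted p of 0.05, and 5 were not called, where 16.3% of all tested genes were called (9.11% higher, 7.2% lower). The same counts, 1 higher and 3 lower, were found in running mice, where 13.2% of all genes were called (7.09% higher, 6.06% lower), and averaged over activity, where 22.9% were called (11.9% higher, 11% lower). The members' median log2 fold change was -0.12 in sedentary mice, -0.18 in running mice and -0.15 averaged, against -0.01, 0.01 and 0.00 over all tested genes. Libraries of the compared groups did not overlap for 3 of the 9 members in sedentary and 3 in running mice, Hamp, Hamp2 and Trf in both, against 11% and 10.4% of all genes. With both activities together they did not overlap for 2, Hamp and Hamp2, against 2.54% of all genes.

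**Figure D1:**
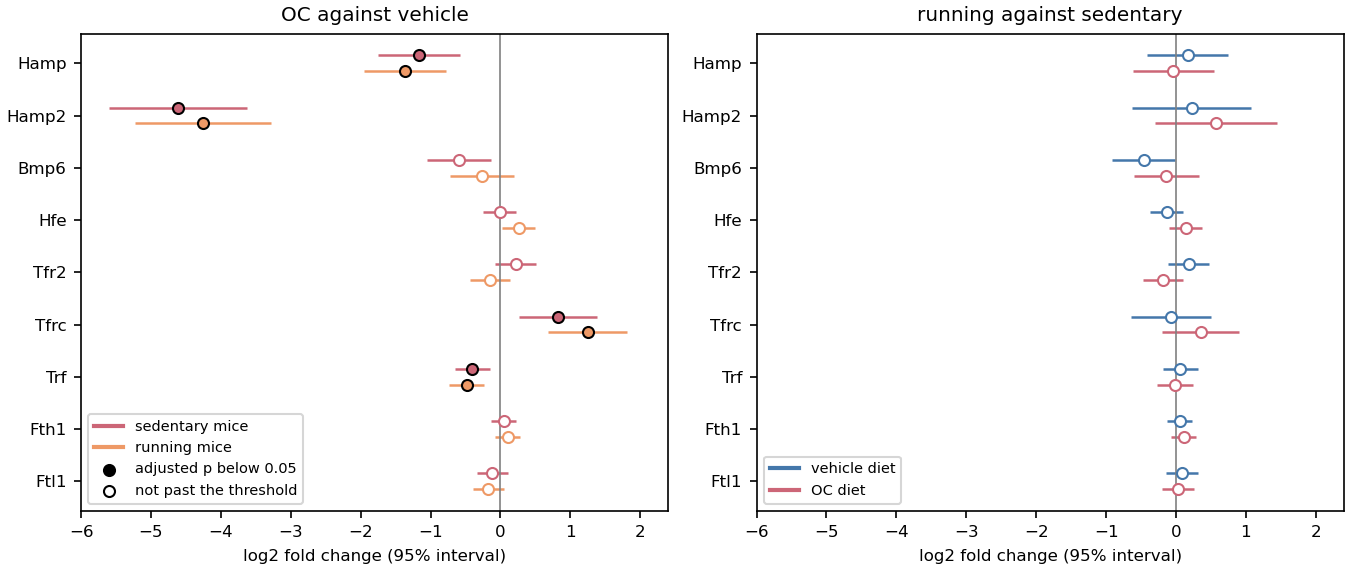
Fitted log2 fold changes of the 9 genes with 95% intervals, OC against vehicle on the left (sedentary and running mice) and running against sedentary on the right (vehicle and OC diet). Filled points have an adjusted p below 0.05 and open points do not. Hamp2 lies near -4.61 and -4.26 on the left, Hamp near -1.16 and -1.37, and every point on the right is open.

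Hamp, the hepcidin gene that acts on body iron, fell by somewhat more than 1 on the log2 scale under the contraceptive diet. In vehicle sedentary mice it stood at 1622, 1224, 836.6, 819.2 and 922.9 CPM in replicates 1 to 5, and in vehicle running mice at 1171, 688.9, 1926, 1178 and 1123 CPM. In OC sedentary mice it stood at 267.2, 261.7, 638.5, 629.7 and 628.8 CPM, and in OC running mice at 445.5, 440.5, 627.8, 414.6 and 434.3 CPM. Every OC liver was below every vehicle liver, the nearest being the 638.5 and 688.9 CPM. The OC sedentary mice formed a low pair (replicates 1 and 2) and a higher trio, and replicate 3 of the OC running mice stood above its group. The fall was 2.24-fold in sedentary mice (log2 fold change -1.16, SE 0.28, edgeR adjusted p = 0.008375) and 2.58-fold in running mice (log2 fold change -1.37, SE 0.28, edgeR adjusted p = 0.002743). In whole liver, less RNA per cell and fewer cells of the type that makes it cannot be told apart.

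Hamp2 was as abundant as Hamp in some vehicle livers and scarce in every OC liver. It stood at 1017, 148.7, 925.5, 295.8 and 1461 CPM in vehicle sedentary mice and at 468.0, 1258, 1043, 1226 and 501.7 CPM in vehicle running mice. It stood at 28.9, 37.1, 31.8, 23.99 and 35.5 CPM in OC sedentary mice and at 58.1, 36.5, 46.8, 47.9 and 45.7 CPM in OC running mice. The groups were far apart, with the highest OC value (58.1 CPM) below the lowest vehicle value (148.7 CPM). Vehicle mice also differed widely among themselves, with a coefficient of variation of 70.4% when sedentary and 43.1% when running, against 16.8% and 16.3% on OC. Hamp2 was 24.5-fold lower in sedentary mice (log2 fold change -4.61, SE 0.48, edgeR adjusted p = 1.562e-06). In running mice it was 19.1-fold lower (log2 fold change -4.26, SE 0.47, edgeR adjusted p = 2.356e-06).

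**Figure D2:**
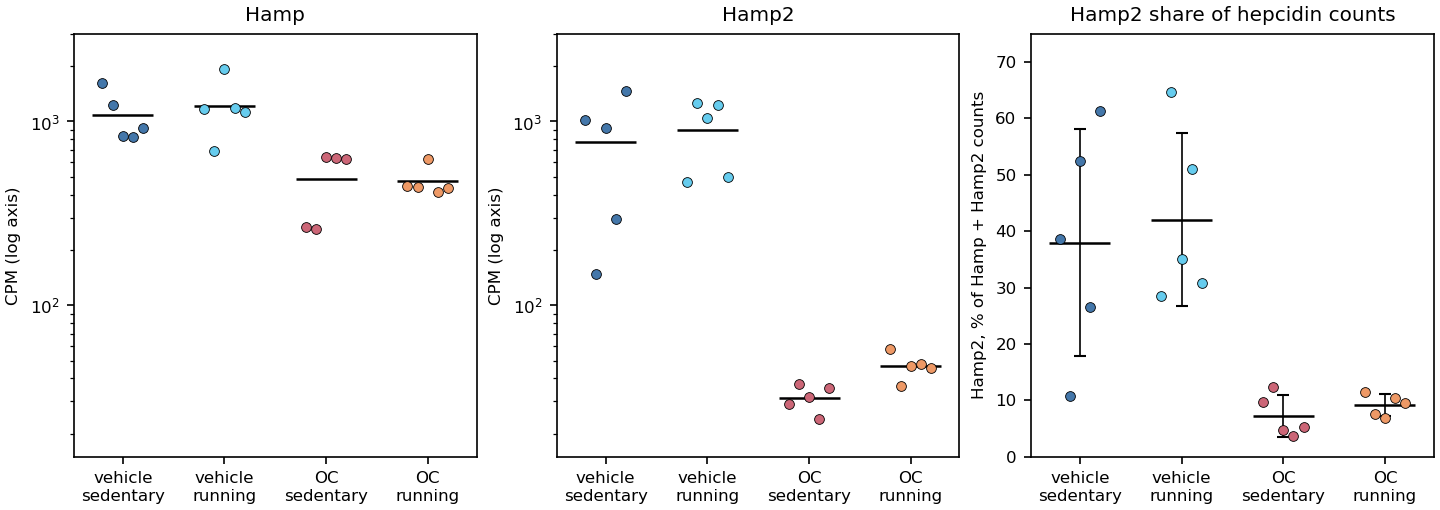
CPM of Hamp and of Hamp2 in each of the 20 livers on a log axis (bars: group means), and Hamp2 as a percentage of the counts of both genes (bars: mean ± SD). Each point is 1 mouse, 5 per group. OC livers lie below all vehicle livers for both genes, with Hamp2 between 23.99 and 58.1 CPM on OC.

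The balance between the hepcidin genes shifted with the diet. Hamp2 made up 37.9% ± 20.1 of hepcidin counts in vehicle sedentary mice (SD, n = 5, range 10.8% to 61.3%) and 42.0% ± 15.4 in vehicle running mice (28.6% to 64.6%). On OC it made up 7.19% ± 3.73 in sedentary mice (3.67% to 12.4%) and 9.20% ± 1.90 in running mice (6.93% to 11.5%). Only in sedentary mice did the ranges overlap, through vehicle replicate 2 at 10.8%. The log2 ratio of Hamp2 to Hamp changed by -2.97 on OC, from -0.88 to -3.84, in sedentary mice (exact two-sided permutation p = 0.01587) and changed by -2.84 in running mice (exact permutation p = 0.007937, the smallest that 5 against 5 allows). Both were 0.01587 after adjustment over the 2 comparisons, a test added after the values had been seen. With the counts of both genes summed, hepcidin mRNA fell 3.59-fold in sedentary mice (log2 fold change -1.84, SE 0.27, edgeR adjusted p = 9.716e-05) and 4.07-fold in running mice (log2 fold change -2.03, SE 0.27, edgeR adjusted p = 3.193e-05).

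Hepatocyte markers did not all move one way. Averaged over activity 4 of the 7 measured were lower, including Alb, the albumin gene, at 1.72-fold lower, and 1 was higher, Tat, a tyrosine-degrading enzyme, at 1.60-fold higher. In sedentary mice 3 were lower and 1 higher, and in running mice 2 were lower and 1 higher. Among all genes 22.9% were called averaged over activity, 16.3% in sedentary and 13.2% in running mice. Their summed level ranged from 147139 to 203265 CPM in vehicle livers and from 87676 to 124945 CPM in OC livers, and most of that sum was Alb, with a mean of 103443 CPM over all libraries. The part of this in the hepcidin result was not tested.

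Bmp6, the main endothelial ligand that drives hepcidin, was the least abundant member, with 44 to 147 reads per library. It stood at 9.36, 11.5, 7.52, 10.7 and 6.36 CPM in vehicle sedentary mice, at 7.60, 5.58, 6.96, 5.09 and 7.65 in vehicle running mice, at 5.69, 4.55, 7.30, 8.54 and 4.11 in OC sedentary mice and at 5.59, 6.52, 5.00, 3.22 and 7.001 in OC running mice. All groups overlapped. The OC difference missed the threshold averaged over activity (log2 fold change -0.43, SE 0.16, edgeR adjusted p = 0.05196) and in sedentary mice (-0.59, SE 0.22, adjusted p = 0.06946). It was -0.26 (SE 0.22, adjusted p = 0.4624) in running mice. DESeq2 called it averaged over activity (adjusted p = 0.03239) and in sedentary mice (adjusted p = 0.04507), as did limma voom (0.0441) and RLE scaling (0.04913) for the average only. With edgeR the average was called without vehicle sedentary replicate 5, vehicle running replicate 4, OC sedentary replicate 3 or 4, or OC running replicate 2 or 5 (adjusted p from 0.0208 to 0.0436). The sedentary difference was called without vehicle sedentary replicate 5 or OC sedentary replicate 4 (adjusted p = 0.04585 and 0.02848). Bmp6 lies at chr13:38345107-38500302 and overlaps Txndc5 on the opposite strand. The libraries were stranded, but the strand setting of the counting is not given in the sources used here.

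The hepatocyte iron sensors Hfe and Tfr2 were not called. Hfe, an MHC class I-like protein that binds transferrin receptors, had group means of 64.8 ± 11.4 (Con.Sed), 59.2 ± 3.85 (Con.VWR), 64.3 ± 6.29 (OC.Sed) and 70.9 ± 9.34 CPM (OC.VWR; SD, n = 5 each). Its OC difference was -0.01 on the log2 scale in sedentary mice (95% interval -0.25 to 0.23) and 0.26 in running mice (0.02 to 0.50, edgeR adjusted p = 0.1379). Without replicate 2 of the OC running mice, the lowest of its group at 55.2 CPM, the running difference was 0.34 (adjusted p = 0.03727). Tfr2, the receptor that senses transferrin saturation, had means of 482.3 ± 104.2, 547.5 ± 54.2, 560.0 ± 46.3 and 492.4 ± 88.2 CPM in the same order. Its OC difference was 0.22 in sedentary mice (-0.07 to 0.51) and -0.15 in running mice (-0.44 to 0.14). The intervals of both genes exclude a 2-fold change.

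Tfrc, the receptor that brings transferrin-bound iron into cells, rose on the contraceptive diet. It stood at 18.6, 34.5, 23.6, 27.4 and 32.4 CPM in vehicle sedentary mice and at 26.3, 33.6, 17.6, 35.9 and 16.3 CPM in vehicle running mice. It stood at 51.4, 59.4, 52.0, 24.3 and 54.2 CPM in OC sedentary mice and at 81.2, 29.9, 58.3, 78.5 and 60.2 CPM in OC running mice. All OC livers but 2, OC sedentary replicate 4 and OC running replicate 2, were above every vehicle liver. In running mice the rise was 2.38-fold (log2 fold change 1.25, SE 0.27, edgeR adjusted p = 0.004056, above the vehicle mean in 5 of 5 mice). In sedentary mice it was 1.77-fold (log2 fold change 0.82, SE 0.27, edgeR adjusted p = 0.04287, above the vehicle mean in 4 of 5). With limma voom the sedentary call did not hold (adjusted p = 0.06168). Nor did it hold without vehicle sedentary replicate 1, 3, 4 or 5, OC sedentary replicate 1, 2, 3 or 5, or OC running replicate 3, at adjusted p from 0.0502 to 0.0987.

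Trf, plasma transferrin and by far the most abundant of these mRNAs, fell in both activity groups. It stood at 26532, 24142, 31303, 24491 and 28668 CPM in vehicle sedentary mice and at 29268, 24768, 30402, 31945 and 24803 CPM in vehicle running mice. On OC it stood at 22894, 20957, 18144, 20161 and 19968 CPM in sedentary mice and at 22095, 19604, 18233, 24155 and 16908 CPM in running mice. The groups did not overlap within either activity. The highest OC running value (24155 CPM) barely exceeded the lowest vehicle sedentary value (24142 CPM). Trf was 1.32-fold lower in sedentary mice (log2 fold change -0.40, SE 0.12, edgeR adjusted p = 0.02802) and 1.40-fold lower in running mice (log2 fold change -0.48, SE 0.12, edgeR adjusted p = 0.01209). The sedentary call was lost without vehicle sedentary replicate 3 or 5, or OC sedentary replicate 3 or 5 (adjusted p from 0.0506 to 0.0647). Trf lies at chr9:103204001-103230444 and shares its strand with an overlapping gene model, Gm20425, so reads common to both could be assigned to either.

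**Figure D3:**
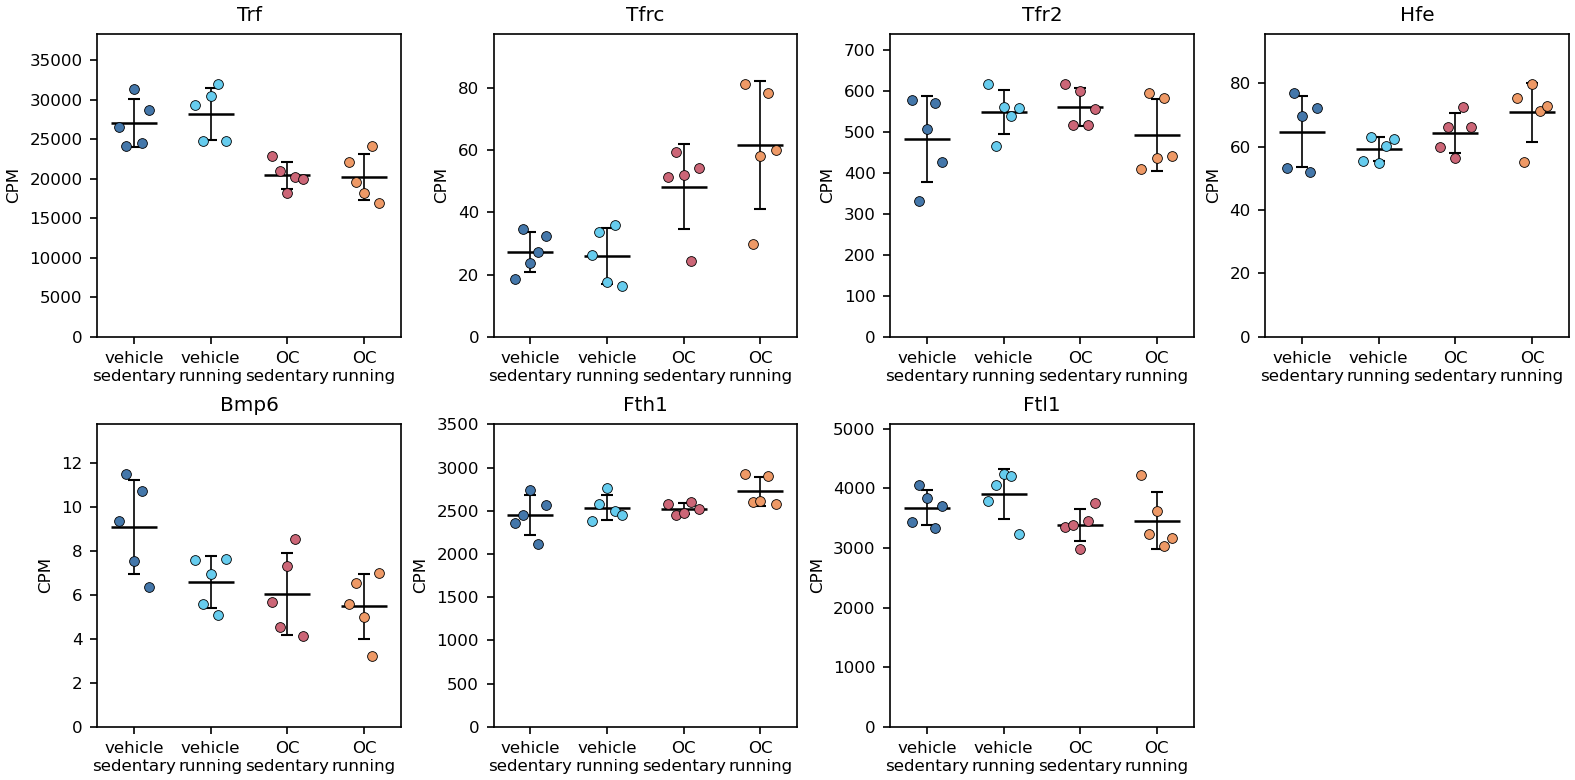
CPM of Trf, Tfrc, Tfr2, Hfe, Bmp6, Fth1 and Ftl1 in each liver (points: 1 mouse each, 5 per group; bars: mean ± SD), each axis starting at 0. Trf lies lower and Tfrc higher on OC, and the 4 groups overlap for both ferritin chains.

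The ferritin genes were abundant, and edgeR with TMM scaling called neither in any comparison. Fth1, the chain that oxidises iron for storage, had means of 2446 ± 231.8, 2535 ± 146.1, 2524 ± 66.1 and 2725 ± 171.4 CPM in Con.Sed, Con.VWR, OC.Sed and OC.VWR. Ftl1, the chain that helps form the iron core, had means of 3676 ± 293.2, 3907 ± 415.7, 3387 ± 272.4 and 3458 ± 479.7 CPM. On OC, averaged over activity, Fth1 differed by 0.07 on the log2 scale (95% interval -0.05 to 0.20, edgeR adjusted p = 0.4003) and Ftl1 by -0.15 (-0.31 to 0.01, adjusted p = 0.1724). With libraries scaled by their totals alone, Fth1 was called for that average (edgeR adjusted p = 0.01176). The OC livers overlapped with the vehicle livers for both genes. Ftl1 overlaps the gene models Gm22133 on its own strand and Gm10252 on the opposite strand, so some reads could be assigned to either. Translation, the step that iron regulatory proteins control for ferritin, was not measured.

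The iron-responsive elements of these mRNAs are shown because Tfrc and the ferritin genes carry the same kind of stem-loop at opposite ends. Each line is 30 bases of the sense strand from the GENCODE vM21 transcript, with the 6-base loop CAGTGN in capitals and all 5 bases on either side of it paired. The Fth1 element (chr19:9982732-9982761) and the Ftl1 element (chr7:45459778-45459807, minus strand) are in the 5′ UTR. The 4 Tfrc elements found are in the 3′ UTR, from chr16:32631219-32631248 to chr16:32631710-32631739. Only stem-loops with this loop and all 5 bases paired were searched for, so 4 may not be the full number.
Fth1: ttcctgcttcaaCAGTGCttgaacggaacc
Ftl1: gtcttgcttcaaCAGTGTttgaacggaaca
Tfrc, element 1: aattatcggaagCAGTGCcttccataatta
Tfrc, element 2: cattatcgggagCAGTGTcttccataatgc
Tfrc, element 3: ctatatcggagaCAGTGAtctccatatgtt
Tfrc, element 4: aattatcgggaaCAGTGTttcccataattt
The mRNA with 4 such elements found in its 3′ UTR rose, and the mRNAs with 1 in the 5′ UTR were not called with TMM scaling. Whether the elements had a part in these results was not tested. The iron regulatory proteins themselves were among 4 tested of 6 listed genes of that group, of which edgeR, DESeq2 and limma voom called 0 averaged over activity and 2 had an unadjusted edgeR p below 0.05. Within an activity edgeR also called 0, while DESeq2 called 1 in sedentary mice, 1 in running mice and 1 for the interaction, and limma voom 1 in sedentary mice. Aco1, which becomes iron regulatory protein 1 when it loses its cluster, differed by 0.22 on the log2 scale in sedentary mice (SE 0.12, edgeR adjusted p = 0.232) and by -0.33 in running mice (SE 0.12, adjusted p = 0.07384). Its interaction was -0.55 (SE 0.17, edgeR adjusted p = 0.2011), and its average, over opposite signs, -0.06 (adjusted p = 0.6757). Epas1, an iron-regulated hypoxia factor, had 0.41 in sedentary mice (edgeR adjusted p = 0.05651) and 0.07 in running mice (adjusted p = 0.7889).

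The listed BMP ligands and receptors of hepcidin control, the members Bmp6, Hfe and Tfr2 among them, divided. Of 19 listed genes 15 were tested, and averaged over activity 1 was higher and 5 were lower on OC, where 22.9% of all genes were called. The median log2 fold change was -0.24 against 0.00 over all genes. In sedentary mice 2 were higher and 2 lower (16.3% of all genes called), and in running mice 1 was higher and 4 lower (13.2%). Neo1 was called higher in sedentary mice (0.30 on the log2 scale, edgeR adjusted p = 0.01797) and had -0.05 in running mice (adjusted p = 0.7491). Its interaction was not called (edgeR adjusted p = 0.2011). Bmp7, a ligand better known from kidney, rose from 1.41 ± 0.23 to 33.1 ± 4.65 CPM in sedentary and from 2.02 ± 0.70 to 42.4 ± 19.9 CPM in running mice (22.2-fold averaged, edgeR adjusted p = 2.565e-12). Averaged over activity, the ligands Bmp10, Gdf2 (BMP9) and Bmp5 fell by 0.68, 0.55 and 0.53 on the log2 scale (SE 0.12, 0.11 and 0.12, edgeR adjusted p = 0.0004214, 0.001334 and 0.003154). Gdf2 stood at 27.8 ± 6.99 and 28.8 ± 3.79 CPM in vehicle sedentary and running mice and at 19.6 ± 2.63 and 19.0 ± 4.24 CPM on OC. Bmp4 and Tmprss6, the protease that cleaves hemojuvelin and so restrains hepcidin, were the other genes called lower for that average. Within an activity, Gdf2 was called in both, Bmp4 in sedentary mice, and Bmp10, Bmp5 and Tmprss6 in running mice, and edgeR called no interaction among these 5 genes. Hjv, hemojuvelin itself, was not called (average -0.12, adjusted p = 0.2651).

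Markers of the cells that make these ligands were compared in the same libraries. Stellate cell and fibroblast markers summed to between 540.8 and 850.1 CPM in vehicle livers and between 352.9 and 599.6 CPM in OC livers, and 6 of the 7 were called lower averaged over activity (6 in sedentary and 3 in running mice). Of the 10 sinusoidal endothelial markers besides Bmp6, edgeR, DESeq2 and limma voom called 0, with 2 at an unadjusted edgeR p below 0.05, and their sum ran from 362.4 to 535.3 CPM on vehicle and from 322.5 to 544.3 CPM on OC. Kupffer cell and macrophage markers had 1 of 8 higher. Across all genes 22.9% were called averaged over activity, 16.3% in sedentary and 13.2% in running mice. The part of the stellate markers in the ligand result was not tested.

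**Figure D4:**
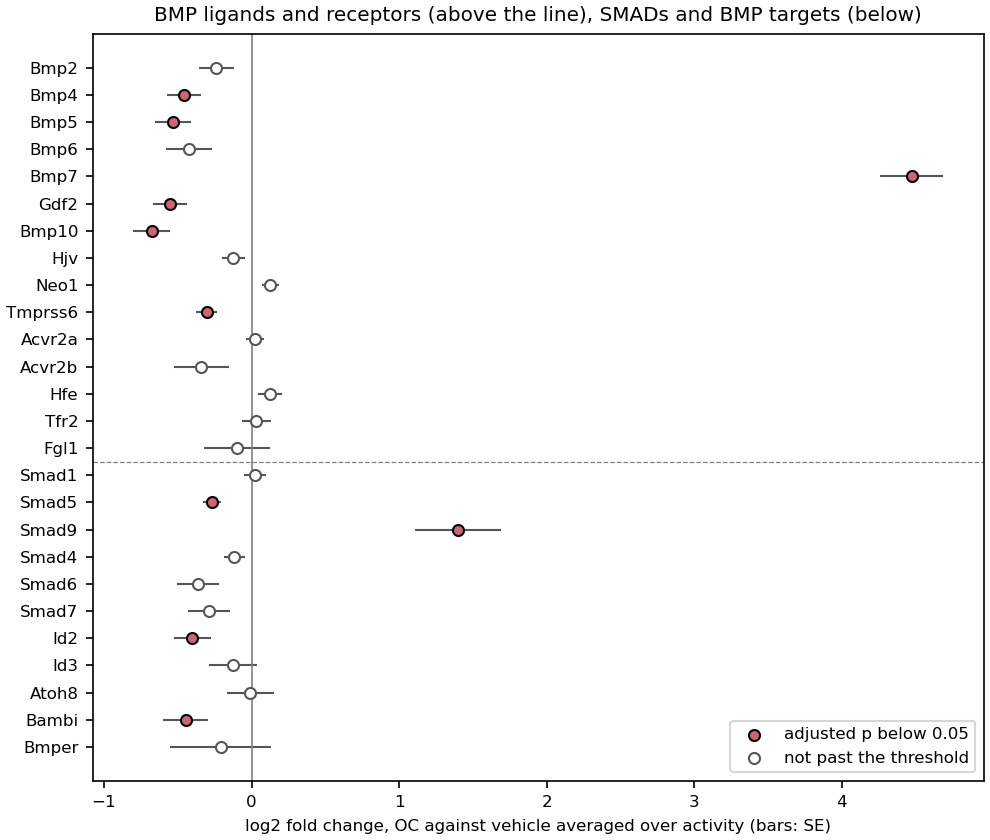
Fitted log2 fold changes (bars: SE), OC against vehicle averaged over activity, for the tested BMP ligands and receptors (above the dashed line) and SMAD proteins and BMP target genes (below it). Filled points have an adjusted p below 0.05. Bmp7 at 4.47 and Smad9 at 1.40 stand to the right, and the other filled points lie left of 0.

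Downstream of the receptors, 11 of 14 listed SMAD and BMP target genes were tested. Averaged over activity 1 was higher and 3 were lower, as in sedentary mice, and in running mice 1 was higher and 1 lower. Of all tested genes 22.9% were called averaged over activity, 16.3% in sedentary and 13.2% in running mice. Smad9, a receptor-regulated SMAD, rose 2.64-fold on average (log2 fold change 1.40, SE 0.29, edgeR adjusted p = 0.001295), with 1.38 in sedentary and 1.42 in running mice. Smad5 fell by 0.27 on average (edgeR adjusted p = 0.002855) and was called in both activities. The BMP target Id2 fell by 0.61 in sedentary mice (edgeR adjusted p = 0.02423) and had -0.19 in running mice (adjusted p = 0.5041). Bambi, a BMP target and decoy receptor, fell by 0.77 in sedentary mice (edgeR adjusted p = 0.01788) and had -0.12 in running mice (adjusted p = 0.7392). Neither interaction was called (0.41 and 0.65, edgeR adjusted p = 0.3857 and 0.2707). Averaged, Id2 and Bambi fell by 0.40 and 0.45 (edgeR adjusted p = 0.02442 and 0.0347). The averaged calls of Smad5, Id2 and Bambi were lost when libraries were scaled by their totals alone (adjusted p = 0.06884, 0.09878 and 0.1025). The averaged Id2 call was also lost without vehicle running replicate 3 (adjusted p = 0.05386), and that of Bambi in 9 of 20 fits that left out 1 library (adjusted p up to 0.0684). Id3 and Smad4 were not called (averages -0.13 and -0.12).

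In the interleukin 6 and STAT3 arm, 2 of 10 tested genes of 14 listed were higher and 1 lower averaged over activity. In sedentary mice 2 were higher and 0 lower, and in running mice 1 was higher and 1 lower. The shares of all genes called were 22.9% averaged, 16.3% in sedentary mice and 13.2% in running mice. Lifr, the leukaemia inhibitory factor receptor that pairs with gp130, rose 6.29-fold on average (log2 fold change 2.65, SE 0.20, edgeR adjusted p = 4.896e-09). Creb3l3, a hepatocyte factor that can bind the hepcidin promoter, was called for the average, 0.25 (adjusted p = 0.03613), and in neither activity alone, a call lost in 13 of 20 fits that left out 1 library (up to 0.0829). Jak2 fell by 0.28 on average (adjusted p = 0.001989, and 0.0626 with library totals alone), with -0.17 in sedentary mice (not called) and -0.39 in running mice (called). Stat3 itself rose by 0.43 in sedentary mice (edgeR adjusted p = 0.04636) and had 0.08 in running mice (adjusted p = 0.7353), with no call for the average (0.26, adjusted p = 0.07371) or the interaction (adjusted p = 0.3733). Il6st, which encodes gp130, had 0.25 in sedentary and -0.13 in running mice, neither called. Acute phase genes, many of them STAT3 targets, did not move one way, with 4 of 15 tested higher and 2 lower averaged over activity, 3 higher and 2 lower in sedentary mice, and 4 higher and 1 lower in running mice. On average Orm3 rose 3.94-fold and Saa4 1.36-fold, while Saa2 fell 2.48-fold and Saa1 1.75-fold (edgeR adjusted p = 2.8e-05, 0.003132, 0.0007104 and 0.02916). The Saa1 call was lost in 5 of 20 such fits (adjusted p up to 0.0656).

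Among 10 tested uptake genes of 15 listed, Tfrc and Hp were higher and Trf lower averaged over activity, where 22.9% of all genes were called. The same counts held in running mice, where 13.2% of all genes were called. In sedentary mice, where 16.3% were called, 2 were higher and 2 lower, Trf and Hpx. Hp, haptoglobin, which clears free haemoglobin, rose 1.45-fold on average (edgeR adjusted p = 0.0002777) and was called in both activities. Hpx, the haem scavenger hemopexin, fell 1.58-fold in sedentary mice (log2 fold change -0.66, SE 0.19, edgeR adjusted p = 0.0238) and had a log2 fold change of 0.13 in running mice (adjusted p = 0.6855). Neither its interaction (0.79, SE 0.27, edgeR adjusted p = 0.2011) nor its average over these opposite signs (-0.26, adjusted p = 0.1691) was called by edgeR. Among the 10 uptake genes DESeq2 called 1 interaction, in a gene not named here, and edgeR and limma voom called 0. Of 8 tested storage and export genes of 11 listed, the ferroxidases Cp and Heph were higher on average, 2 were higher in sedentary mice (Cp and Pcbp1, an iron chaperone named after its value was seen), and edgeR called 0 in running mice, where 3 had an unadjusted p below 0.05, DESeq2 called 0 and limma voom 1. Cp, ceruloplasmin, which oxidises iron as it leaves cells, rose 1.39-fold in sedentary mice (edgeR adjusted p = 0.01075), from 1359 ± 178.0 to 1886 ± 194.5 CPM. In running mice it stood at 1452 ± 189.8 CPM on vehicle and 1728 ± 223.8 CPM on OC (edgeR adjusted p = 0.1702), and the average was a 1.29-fold rise (adjusted p = 0.003406). The Heph call for the average (adjusted p = 0.03511, mean 2.10 CPM) was lost in 10 of 20 fits that left out 1 library (adjusted p up to 0.0701). Ferroportin itself (Slc40a1), the target of hepcidin, had a displaced line and was not analysed here.

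Of 13 tested genes of mitochondrial iron use and iron-sulphur cluster assembly, out of 20 listed, 1 was higher and 1 lower averaged over activity, and 1 was lower and 0 higher in each activity alone. Over all genes 22.9% were called averaged over activity, 16.3% in sedentary and 13.2% in running mice. Hspa9, the chaperone mortalin, fell by 0.41 on the log2 scale on average (SE 0.08, edgeR adjusted p = 0.0007639), and the call for Fdx1, a ferredoxin, at 0.26 (adjusted p = 0.045) was lost in 13 of 20 fits that left out 1 library (adjusted p up to 0.0955). Of 7 tested haem genes of 8 listed, 2 were higher and 1 lower on average and in running mice, and 1 was lower in sedentary mice. On average the haem exporter Abcg2 rose 1.25-fold and the constitutive haem oxygenase Hmox2 1.15-fold (edgeR adjusted p = 0.001326 and 0.01548). Flvcr2, a haem and choline transporter, fell by 1.18 on the log2 scale (SE 0.27, edgeR adjusted p = 0.002768) and was called in both activities. Hmox1, the inducible haem oxygenase, was not called (average -0.12, adjusted p = 0.5134). Over the 8 iron lists together 77 of 106 genes were tested. Of these 11 were higher and 12 lower averaged over activity, where 22.9% of all genes were called. In sedentary mice 9 were higher and 9 lower, where 16.3% of all genes were called, and in running mice 7 were higher and 9 lower, where 13.2% were called.

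Wheel running moved none of the 9 genes past the test. edgeR called 0 of 10207 genes (0%) for running on vehicle, on OC or averaged, with 1414, 694 and 496 genes at an unadjusted p below 0.05, among them 1 member, Bmp6 on vehicle. DESeq2 called 42, 1 and 2 genes and limma voom 0, none of them a member. Running and sedentary libraries overlapped for all 9 genes on both diets, where they did not for 2.01% of all genes on vehicle and 1.06% on OC. On the OC diet Hamp2 was 1.49-fold higher in running mice, with 5 of 5 above the sedentary mean (log2 fold change 0.58, SE 0.42, 95% interval -0.29 to 1.45, edgeR adjusted p = 0.7089). On the vehicle diet Bmp6 was below the sedentary mean in 5 of 5 running mice (log2 fold change -0.46, SE 0.22, edgeR adjusted p = 0.3518). For Hamp the running difference was 0.17 on vehicle (95% interval -0.41 to 0.74) and -0.04 on OC (-0.62 to 0.54).

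Whether running altered the contraceptive effect was tested as the interaction of diet and activity. edgeR called 0 genes (0%), with 1802 of all genes and 0 of the 9 members at an unadjusted p below 0.05, where DESeq2 called 119 and limma voom 0. The difference between the OC effects in running and sedentary mice was -0.20 on the log2 scale for Hamp (95% interval -1.02 to 0.61), 0.35 for Hamp2 (-0.86 to 1.57) and 0.43 for Tfrc (-0.37 to 1.22). For Tfr2 it was -0.37 (-0.78 to 0.04, adjusted p = 0.3319), and for Trf -0.08 (-0.44 to 0.28). For Bmp6 it was 0.33 (-0.32 to 0.97), and for Hfe 0.27 (-0.06 to 0.61). The intervals for the hepcidins, Tfrc, Tfr2, Bmp6 and Hfe include differences of 1.5-fold or more, so alike responses are not shown.

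Within a diet, no relation between the hepcidins was detected from mouse to mouse. Across the 10 vehicle mice Hamp and Hamp2 had a Pearson r of -0.01 (Spearman rho -0.10, permutation p = 0.983), and across the 10 OC mice -0.05 (rho -0.31, p = 0.879). In all, 22 relations were computed, and p-values were adjusted over them. Among vehicle mice Hamp rose with Smad6, an inhibitory SMAD that BMP signalling induces (r = 0.87, permutation p = 0.00141, adjusted 0.031; rho = 0.86, p = 0.00292, adjusted 0.0214), and r was 0.92 without the 2 mice farthest from the median. Hamp2 ran against Bmp6 (r = -0.81, permutation p = 0.00367, adjusted 0.0404; rho = -0.87, p = 0.00212, adjusted 0.0214), with r = -0.70 without the 2 farthest mice. As deviations from group means r was 0.89 and -0.86. Leaving out single vehicle mice kept r between 0.81 and 0.94 for Hamp and Smad6 and between -0.92 and -0.72 for Hamp2 and Bmp6, while the adjusted p rose to at most 0.0785 and 0.219 with 9 mice. It stayed below 0.05 in 4 of the 10 cases for Hamp and Smad6 and in 1, without vehicle sedentary replicate 1, for Hamp2 and Bmp6.

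Among OC mice Hamp2 was related to Tfrc by rank, while the Pearson value missed the threshold (r = 0.77, permutation p = 0.00746, adjusted 0.0547; rho = 0.89, p = 0.00114, adjusted 0.0214), with r = 0.86 without the 2 farthest mice and r = 0.90 for deviations from group means. Without OC sedentary replicate 4, the lowest in both genes within its group, r was 0.61 (adjusted p = 0.246). Among vehicle mice the same genes had r = -0.08 (adjusted p = 0.919). Hamp and Bmp6 had r = 0.17 on vehicle and 0.26 on OC (adjusted p = 0.761 for both).

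The genes whose levels followed those of the hepcidins most closely over the 20 libraries were sought among the 7401 genes whose mean reached 5 CPM. Both hepcidins differ between the diets, which enters these values, so the correlation of deviations from group means is given with each. Among the closest to Hamp2 were Otc, a urea cycle enzyme (r = 0.94, deviations 0.69), Ces1b, a carboxylesterase (0.93, deviations 0.38), Rdh16, a retinol dehydrogenase (0.93, deviations 0.79), and Rcan2 (0.93, deviations 0.61). Most opposite were Dpy19l3 (-0.96, deviations -0.49), Csad, an enzyme of taurine synthesis (-0.96, deviations -0.70), and Mup20, a major urinary protein (-0.95, deviations -0.51). Among the closest to Hamp were Map3k21 (0.85, deviations 0.57), Sowahb (0.85, deviations 0.62), Casp9, an initiator caspase (0.85, deviations 0.73), and Sgms1 (0.84, deviations 0.42). Most opposite to Hamp were Prmt3 (-0.88, deviations -0.62), Stbd1 (-0.84, deviations -0.43) and Dpy19l1 (-0.84, deviations -0.33). None of these genes was named for both hepcidins.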

How the data were processed

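Stranded paired-end RNA libraries were made from liver of individual mice, per the labels' protocols. The submitters' processing notes name STAR, the build mm10, R 4.05 and limma. How reads were counted, with which annotation and strand setting, is not given in the sources used here. By their values, the deposited numbers are expected counts of each gene without any scaling of libraries. The planned design had assumed whole counts, and every value used was whole, so rounding changed none. Of 35504 lines 23993 were intact, and 11511 were left out because their values were displaced or doubtful, listed genes such as Slc40a1 and Id1 among them. Totals ran from 10883936 to 16134618 counts per library, and read counting error was small beside the spread between mice except for the scarcest genes.

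Counts were tested with edgeR 4.0.16 in R 4.3.3 by the quasi-likelihood test, with 1 mean per group over all 20 libraries, TMM scaling, filterByExpr and Benjamini-Hochberg adjustment over 10207 genes at a threshold of 0.05 (biological coefficient of variation 0.178). Every adjusted p of a fold change is from this fit unless another tool is named. The procedure was tested on simulated counts. Of 1.5-fold changes it recovered 46.6% for OC in sedentary mice, 74.0% for OC averaged and 23.3% for the interaction. Of 2-fold changes it recovered 85.5%, 95.2% and 74.2% in the same order. False calls were 11 of 163, 10 of 188 and 8 of 133, so changes near 1.5-fold can be missed, above all for the interaction. CPM values used TMM-scaled totals, and correlations used log2 CPM with a prior count of 2 and 100000 permutations (two-sided). The alternatives were RLE scaling, library totals, no filter, DESeq2 1.42.0, limma 3.58.1 voom, only the groups compared, each library left out, and the hepcidin genes summed. The members and the gene lists were chosen with earlier results of these data known. Genes named were all members, up to 3 called genes of each list in each direction by adjusted p and the 2 most abundant uncalled ones. Bmp4, Tmprss6, Hjv, Neo1, Alb and Tat were named after their values were seen. The 5 genes most like and the 3 least like each hepcidin were sought, and some of them are not reported here. Gene positions came from GENCODE vM21 and promoters from RefSeq (GRCm38.p6).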

Additional observations from a re-analysis of the deposited data

Results flagged for a closer look

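Outlying mice were looked for in each of 36 groups, that is 9 genes in 4 groups of 5 mice. Chance alone marks about 1 in 20 such groups. The gap of a mouse to its nearest neighbour was set against the range of its group. In OC running mice, replicate 3 had a Hamp level of 627.8 CPM, where the others lay between 414.6 and 445.5 CPM. In OC sedentary mice, replicate 4 had a Tfrc level of 24.3 CPM, where the others lay between 51.4 and 59.4 CPM.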

How the results depend on the processing

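The OC calls of Hamp and Hamp2 held in every alternative run, and so did those of Tfrc and Trf in running mice and averaged over activity. Scaling by library totals alone brought the median log2 fold change of all genes from -0.01, 0.01 and 0.00 (OC in sedentary mice, in running mice, averaged) to 0.10, 0.12 and 0.11, and moved the share of OC calls that were higher from 55.9%, 53.9% and 51.8% to 82.6%, 80.6% and 81.0%. Under it Hfe was called in running mice (0.38, adjusted p = 0.04189) and averaged (adjusted p = 0.04433), Fth1 averaged (adjusted p = 0.01176), as were Stat3, Lrp1, Epas1 and Glrx5 (adjusted p = 0.006935, 0.03426, 0.007407 and 0.04705), and signs turned for Hfe in sedentary mice (0.0998), Fgl1 (0.0097), Smad4 (0.0015), Aco1 (0.065), Bola3 (0.0191), Blvrb (0.0138) and Fgb (0.049). Other signs turned near 0: Hfe in sedentary mice in limma voom (0.000625), Hamp for running on OC in limma voom (0.0635) and summed with Hamp2 (0.00812), the interaction of Hamp2 when summed (-0.183), and Tfr2 for running averaged over diet with RLE (0.00512), totals (0.00135), no filter (0.00307), DESeq2 (0.00511) and limma voom (0.003999). DESeq2 called 42, 1 and 2 genes for running on vehicle, on OC and averaged, and 119 for the interaction, 2 of them in the iron lists.

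Leaving out single libraries gave 998 to 1794 OC calls in sedentary mice (998 without OC sedentary replicate 1) and 817 to 1679 in running mice (817 and 835 without OC running replicates 1 and 3). Members called in sedentary mice ran from 2 to 5, with 2 without vehicle sedentary replicate 3 or OC sedentary replicate 3 or 5. Iron list calls ran from 7 to 20 in sedentary mice (7 and 9 without OC sedentary replicates 1 and 5) and from 10 to 20 in running mice (10 without OC running replicate 3). Calls ran from 0 to 1 for running on OC and averaged, from 0 to 2 for the interaction, and from 0 to 3 for the within-diet relations. Signs turned within these log2 ranges: for OC, Fth1 (-0.00125 to 0.0836) and Hfe (-0.0792 to 0.0576) in sedentary mice, and Tfr2 (-0.0229 to 0.069) and Id3 (-0.202 to 0.00219) averaged. For running on vehicle they were Hamp (-0.0659 to 0.352), Hamp2 (-0.0403 to 0.583) and Tfrc (-0.221 to 0.0537), and on OC Hamp (-0.195 to 0.0738), Bmp6 (-0.257 to 0.0208), Trf (-0.0885 to 0.0296) and Ftl1 (-0.0522 to 0.0728). For running averaged they were Hamp (-0.0476 to 0.161), Hfe (-0.0285 to 0.0447), Tfr2 (-0.0557 to 0.0374) and Trf (-0.0126 to 0.0527), and for the interaction Hamp (-0.381 to 0.0365). The cause of these changes was not tested. No paired analysis was possible because the labels give no replicate numbers that link mice of different groups. No member had a displaced line, so none had to be restored. Depth limits Bmp6 most, at 44 to 147 counts.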
